A study of Mus musculus with 15 samples.

Results

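The regions described here are 299 of the 43020 genomic regions in which chromatin accessibility was counted in mouse colon cancer organoid lines. They were less accessible in the organoids grown from liver metastases after the second and the third transplantation (Met2 and Met3) than in 3 other groups: the metastasis lines of round 1 (Met1) and the primary tumour lines of rounds 2 and 3 (Primary2 and Primary3). A region was a member when its group value was at least 10 CPM (counts scaled to a library total of 1000000) in each of Met1, Primary2 and Primary3, and when each of these 3 values was at least 2 times both Met2 + 0.5 CPM and Met3 + 0.5 CPM. A group value is the sum of the counts of the 3 lines of a group over the sum of their totals. The members were thus selected on the 5 group values, so that every difference between the later metastasis groups and the 3 other groups is a description. Calls of the fit over all regions in those contrasts are given beside their background and support nothing.

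ATAC-seq uses a transposase that cuts and tags DNA where it is not covered by nucleosomes or other proteins. Open regions of this kind are mostly promoters and enhancers, and a lower count at a region means that fewer cells carried it open, that it was open less of the time in each cell, or that fewer copies of it were present. These readings cannot be told apart in a bulk library. Tumour cells of one origin can differ in which enhancers are open without a change in DNA sequence, and serial transplantation from a metastatic site is a classical way to enrich for cells that colonise that site.

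All 15 lines carried the genotype labelled AKP, and the recipient mice were C57Bl6. Met2, Met3, Met1, Primary2 and Primary3 held 3 lines each. Organoids grown from liver metastases or from primary tumours were transplanted back into the colon of immunocompetent mice for up to 3 rounds. Round 1 has metastasis lines and no primary lines here, so for Met1 the site of origin and the round cannot be told apart. The descent of single lines and the number of mice behind them are not given in the sources used here. A p-value below therefore speaks of the spread between these lines alone, which may be partly technical. Gene names, motifs and sequences are not given, since the coordinates are in the mouse build mm9 and no genome or annotation of that build was used here.

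Library totals ran from 285633 to 5916109 counts. Primary3 replicate 2 was the shallowest, and in it 1 count was worth 3.50 CPM, 10020 of all regions and 21 of the 299 members held no count. Its single values carry little weight. Met1 replicate 1 was the next shallowest, with 790233 counts. Met2 replicate 1 correlated with the other Met2 lines at 0.743 and 0.692 over the tested regions (log2 CPM), against 0.844 between these others. Such a gap was also seen for the shallowest libraries: Met1 replicate 1 (0.723 and 0.719, against 0.897) and Primary3 replicate 2 (0.719 and 0.732, against 0.929). The set of regions chosen without Met2 replicate 1 is described beside the members below.

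The requirement of 10 CPM in the 3 open groups was met by 20509 regions. The fold requirement was met against Met2 in 439 of them, against Met3 in 969, and against both in the 299 members. Met2 was the higher of the later groups in 198 members and Met3 in 101. The lowest of the 3 open groups was Met1 in 186 members, Primary3 in 61 and Primary2 in 52. Among the members, Met1 was thus most often the open group, and Met2 the later group, closest to the fold limit. Which open group kept other regions out was not counted.

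Over the 299 members, the median group value was 6.59 CPM in Met2 and 5.52 CPM in Met3, against 21.2 CPM in Met1, 26.9 CPM in Primary2 and 28.0 CPM in Primary3. Over the 20509 regions with at least 10 CPM in the open groups, the medians were 28.8, 27.9, 29.5, 30.0 and 30.0 CPM in the same order. In the open groups, then, the members lay somewhat under the typical region, and in Met2 and Met3 far under it. The mean of the 2 later groups was a median of 25.3% of the mean of the open groups, with a range of 5.83% to 44.5%. The word closed is apt for few members by level. Met2 and Met3 were both under 2 CPM in 1 member and both under 5 CPM in 82, while at least one of them was at 10 CPM or more in 85.

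The margin of a member is its lowest open group value over the higher of Met2 + 0.5 CPM and Met3 + 0.5 CPM. It had a median of 2.45 (quartiles 2.17 and 2.99) and ran from 2.00 to 12.1. A margin of at least 3 was found in 74 members, of at least 4 in 27 and of at least 5 in 9, while 165 members lay under 2.5. Just inside the rule were peak_45339 (2.001), peak_806 (2.002) and peak_66690 (2.004), and just outside it peak_56042 (1.995), peak_26380 (1.995) and peak_91919 (1.992). The set has no natural edge at its lower end. peak_806, on chromosome 1 from 38011256 to 38012077, had 28.2, 15.4 and 19.7 CPM in Met2 and 20.8, 8.22 and 39.7 CPM in Met3, against 35.4, 52.2 and 47.0 CPM in Met1, 39.1, 42.2 and 61.5 CPM in Primary2, and 46.9, 10.5 and 40.6 CPM in Primary3. Its lines overlapped: 1 Met3 line was above 3 lines of the open groups, and Primary3 replicate 2 was among the lowest.

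**Figure D1:**
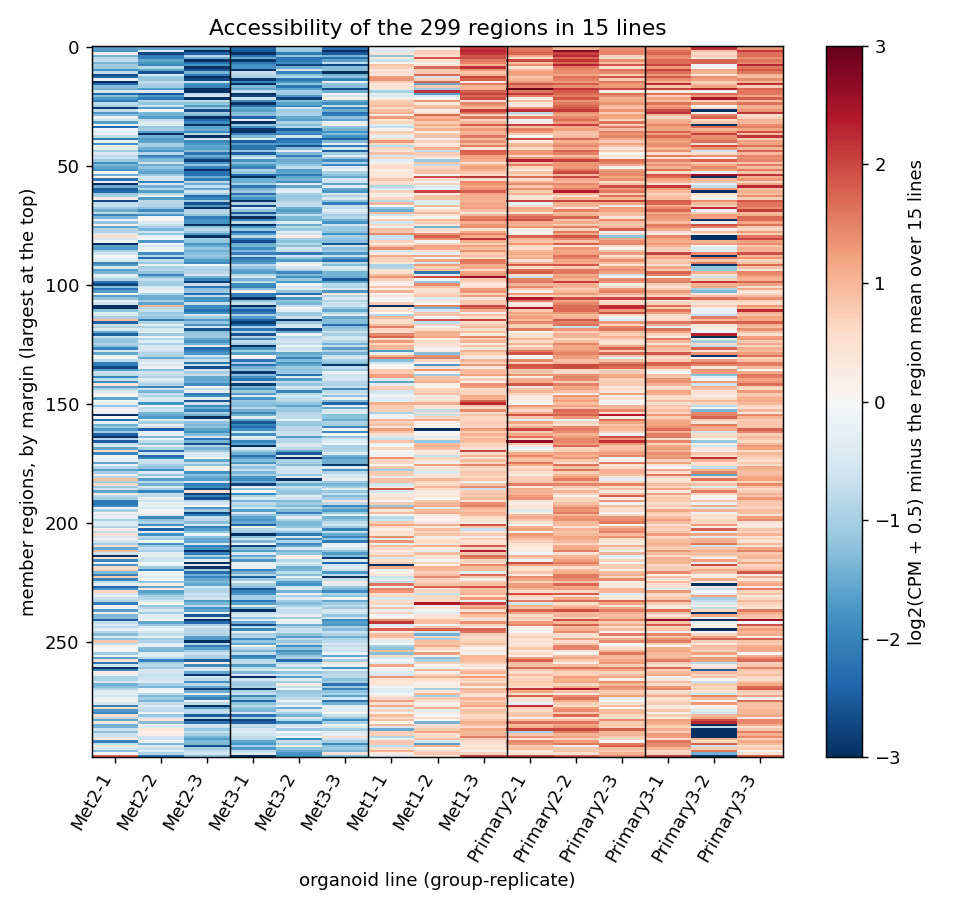
Accessibility of the 299 members (rows, largest margin at the top) in the 15 organoid lines (columns, 3 per group), as log2(CPM + 0.5) minus the mean of the region over the 15 lines. The 6 Met2 and Met3 columns are mostly below the mean, the Met1 column of replicate 3 is a deeper red than those of replicates 1 and 2, and Primary3 replicate 2, the library of 285633 counts, holds scattered cells at the lower end of the scale.

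The region of largest margin, peak_80765, lay on chromosome 6 from 31098423 to 31099814. It had 3.84, 10.97 and 2.72 CPM in Met2 and 5.06, 3.93 and 3.78 CPM in Met3, against 31.6, 53.5 and 133 CPM in Met1, 102, 119 and 87.4 CPM in Primary2, and 103, 45.5 and 79.1 CPM in Primary3. All 6 later metastasis lines lay under all 9 other lines, and the log2 difference between metastasis and primary lines of rounds 2 and 3 was -4.08 ± 0.36 (SE). Its Met1 lines spread widely without meeting the later lines.

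The next members by margin differed in how evenly the open lines carried the signal. At peak_65100, on chromosome 4 from 55621904 to 55622524, the values were 1.28, 1.32 and 1.36 CPM in Met2 and 0.563, 2.14 and 0.630 CPM in Met3, against 3.80, 4.74 and 23.0 CPM in Met1, 15.5, 10.4 and 13.8 CPM in Primary2, and 13.4, 24.5 and 13.0 CPM in Primary3. The lines did not overlap, but the Met1 group value of 13.0 CPM came mostly from replicate 3, and the other Met1 lines lay nearer to the later metastases than to the primary lines. At peak_11721, on chromosome 11 from 42954717 to 42955165, Met2 had 1.28, 3.95 and 0 CPM and Met3 0.563, 2.14 and 0 CPM, against 3.80, 9.49 and 29.9 CPM in Met1, 18.4, 39.5 and 16.2 CPM in Primary2, and 18.03, 10.5 and 25.5 CPM in Primary3. Met1 replicate 3 was again the highest Met1 line. Replicate 2 came near the lowest primary line, and replicate 1 fell just under the highest Met2 line.

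In peak_82167, on chromosome 6 from 54978534 to 54979667, 1 later line stood apart. Met2 had 37.1, 4.39 and 5.44 CPM and Met3 3.38, 6.79 and 5.04 CPM, against 43.0, 51.2 and 144 CPM in Met1, 108, 131 and 87.4 CPM in Primary2, and 107, 49.0 and 100.4 CPM in Primary3. Met2 replicate 1, at 37.1 CPM, was close to the lowest open lines, and the other 5 later lines were under 7 CPM.

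The 6 members that follow by margin had all later lines at 12.2 CPM or less. On chromosome 18 from 11051592 to 11053497, peak_43939 had 12.2, 5.26 and 8.17 CPM in Met2 and 7.88, 4.65 and 4.41 CPM in Met3, against 29.1, 85.7 and 92.7 CPM in Met1, 34.5, 75.1 and 34.8 CPM in Primary2, and 60.3, 31.5 and 61.2 CPM in Primary3. In it Met1 was the highest group, at 82.8 CPM. In peak_74007, on chromosome 5 from 77813000 to 77814422, Met2 had 7.04, 3.51 and 4.08 CPM and Met3 3.94, 1.79 and 1.89 CPM, against 27.8, 20.2 and 32.0 CPM in Met1, 40.9, 79.0 and 55.9 CPM in Primary2, and 63.6, 14.004 and 75.2 CPM in Primary3. Here Met1 was between the later metastases and the primary groups by group value (26.5 CPM). In both, no later line reached an open line. The same separation was seen in peak_45343, peak_23503 and peak_87655, while in peak_19819 (chromosome 12, 55669033 to 55669996) Met1 replicate 1, at 5.06 CPM, lay among the Met2 lines (4.48, 2.63 and 6.80 CPM).

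**Figure D2:**
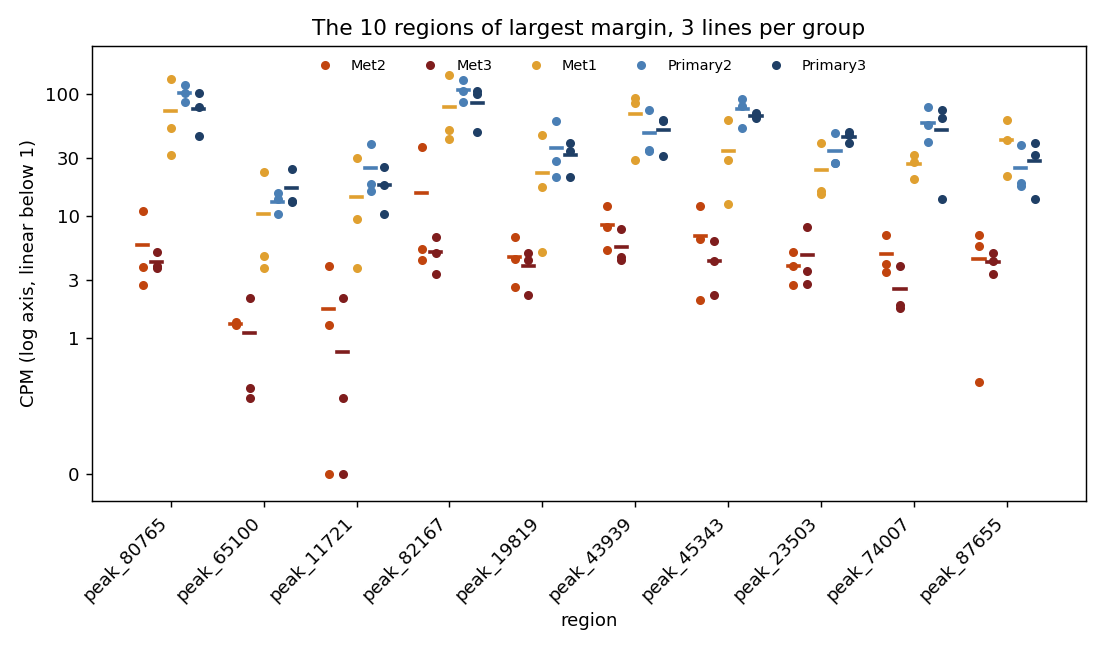
CPM of the 10 members of largest margin in each of the 15 lines (points; 3 per group) with the mean of each group (short bars), on an axis that is logarithmic above 1 CPM and linear below it. The 6 later metastasis points of each region are at 12.2 CPM or less except Met2 replicate 1 in peak_82167, at 37.1 CPM.

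The members with the highest level in the open groups were peak_24191, peak_62647, peak_82167, peak_48306 and peak_25, and in 3 of them, peak_24191, peak_48306 and peak_62647, Met2 kept a group value of 56.7, 36.7 and 35.0 CPM. At peak_24191, on chromosome 13 from 46138539 to 46139625, Met2 had 90.9, 52.6 and 26.5 CPM and Met3 30.9, 33.6 and 41.6 CPM, against 58.2, 88.9 and 159.8 CPM in Met1, 113, 126 and 123 CPM in Primary2, and 150.4, 147 and 129 CPM in Primary3. One Met2 line was above 2 Met1 lines. At peak_25, on chromosome 1 from 4660579 to 4662744, Met2 had 4.48, 17.5 and 14.97 CPM and Met3 1.13, 16.1 and 13.2 CPM, against 17.7, 24.0 and 64.3 CPM in Met1, 129, 129 and 133 CPM in Primary2, and 112, 84.0 and 116 CPM in Primary3. Every primary line of peak_25 lay above every metastasis line, with 84.0 CPM in the shallow Primary3 replicate 2 as the lowest primary value and 64.3 CPM in Met1 as the highest metastasis value.

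At the level of single lines, all 9 open lines lay above all 6 later metastasis lines in 137 of the 299 members (45.8%), and the same order held in 0.993% of all 43020 regions. Since the rule used these lines, nothing is read from that contrast. Without Met1 replicate 1 and Primary3 replicate 2, the 2 shallowest libraries, the members in which no line overlapped numbered 220 (73.6%), against 2.12% of all regions. All 6 later lines were under 50% of the median of the 9 open lines in 195 members, 5 of them in 83, 4 in 14, 3 in 6 and 2 in 1. The line most often above that level was Met2 replicate 1, in 57 members, against 10 to 24 members for each of the other later lines. Among the open lines, Met1 replicate 1 and Primary3 replicate 2 were each under 2 times the median of the later lines in 81 members and Met1 replicate 2 in 54, against 1 to 21 members for the other open lines. The counts against these medians were not taken over all regions. They follow largely from the rule, and nothing is read from them.

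The counts that fell in members can also be given per line. They made up 0.291%, 0.254% and 0.187% of the library in Met2 and 0.178%, 0.220% and 0.237% in Met3, against 0.614%, 0.699% and 0.965% in Met1, 0.978%, 1.13% and 0.971% in Primary2, and 1.02%, 0.804% and 1.02% in Primary3. The later metastasis lines averaged 0.228% ± 0.0426 (SD, n = 6) and the open lines 0.912% ± 0.168 (SD, n = 9). Met1 replicate 3 was level with the primary lines, and the other Met1 lines lay between the primary and the later metastasis lines. Met1 replicate 3 was the highest Met1 line in 183 of the 299 members, against 63 for replicate 2 and 53 for replicate 1.

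Because these shares come from the values that chose the regions, the rule was applied again without each line in turn, and the share of that line's counts was taken in the regions so obtained. In Met2 the shares were 0.982%, 0.313% and 0.191% and in Met3 0.182%, 0.260% and 0.248%, against 0.588%, 0.737% and 0.630% in Met1, 0.997%, 1.02% and 0.937% in Primary2, and 0.996%, 0.797% and 0.998% in Primary3. Each share is over its own set of regions, 210 to 469 of them, so these values are not a comparison at equal regions. Within its own set, each of the 6 later lines held a smaller share than every open line. The share of Met2 replicate 1 was close to the lowest open line there, and those of the 5 other later lines were far from it.

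Leaving out Met2 replicate 1 gave 469 regions, of which 267 were among the 299 members and 202 were new. In these 469 regions Met2 replicate 1 held 0.982% of its counts, against 0.284% to 0.416% in the other 5 later lines and 1.02% to 1.78% in the open lines. It was thus nearer to the open lines than to the other later lines, and still under each open line in summed share. By region, it was below all open lines in 181 of the 469, while it was so placed in 13.3% of all regions. It was above all other later lines in 288 of the 469, and how often this held over all regions was not counted. These counts are not exclusive, and nothing is read from them. In the 202 new regions, which its own high value had kept out of the set, Met2 replicate 1 had a median of 28.8 CPM, against 5.06 to 7.56 CPM in the other later lines.

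Met1 replicates 2 and 3 also moved the set. Without Met1 replicate 3, 210 regions met the rule and 112 members were lost. Met1 replicate 3 held 0.630% of its counts in these 210 regions, within the range of the other open lines there (0.470% to 0.746%). Its share of 0.965% in the 299 members is over more regions and is not a like comparison. Without Met1 replicate 2, 400 regions met the rule, 126 of them new. Leaving out any 1 of the other lines gave 258 to 320 regions. Met1 was summed over lines of 790233, 3161464 and 3342414 counts, so that replicates 2 and 3 set most of the group value, and with the mean of the lines' CPM in place of the sum the rule gave 309 regions, of which 225 were members.

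**Figure D3:**
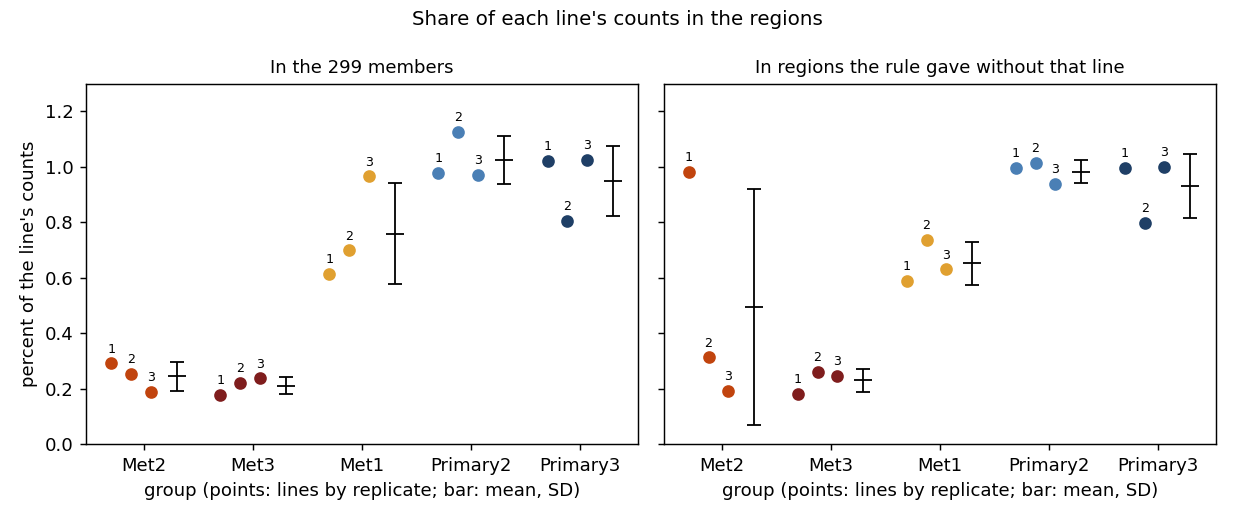
Percent of each line's counts in the 299 members (left) and in the regions that the rule gave when that line was left out (right), by group. Points are lines, numbered by replicate, and the bars beside them give the mean and SD of the 3 lines. On the right, where each point has its own set of regions, Met2 replicate 1 is at 0.982% and the other later lines are at 0.182% to 0.313%.

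The lines of a group also varied more in the members than elsewhere. The median coefficient of variation over 3 lines was 0.540 in Met2 and 0.439 in Met3 over the members, against 0.271 and 0.208 over the other regions with at least 10 CPM in the open groups. In Met1 it was 0.379 over members and 0.240 over the others. In Primary2 (0.265 and 0.203) and Primary3 (0.298 and 0.254) the difference was small. Over the Met2 lines other than replicate 1 the medians were 0.476 in the members and 0.186 in the others. Counts are lower in the members in Met2 and Met3, which alone raises the counting error, so these values are not a comparison of spread at equal depth.

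In the fit across all regions (edgeR quasi-likelihood, Benjamini-Hochberg adjusted p under 0.05 over 39952 tested regions), all 299 members were tested. Metastasis lines of rounds 2 and 3 were lower than their primary lines in 297 members, against 8.98% of all tested regions, with a median log2 fold change of -1.95 against 0.04 over all regions. In single contrasts the count of members called lower was 202 for Met2 against Primary2 (2.77% of all regions called lower), 217 for Met3 against Primary3 (4.52%), 102 for Met2 against Met1 (0.909%) and 179 for Met3 against Met1 (3.56%). No member was called higher in any of these 5 contrasts, against 11.2% of all regions in rounds 2 and 3 together, 3.44% for Met2 against Primary2, 5.64% for Met3 against Primary3, 2.64% for Met2 against Met1 and 5.98% for Met3 against Met1. These contrasts share groups with each other and with the rule, and nothing is read from the counts. The lowest of them, Met2 against Met1, ranged from 24 (without Met1 replicate 3) to 127 (without Met2 replicate 1) members when 1 line was left out. Over all tested regions, 0.2% and 1.72% were called lower in these fits. It was 2 members, peak_26805 and peak_51510, when only the 2 groups compared were fitted, where 15 of all 35827 tested regions were called lower (0.0419%).

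Met3 and Met2 were both bounded by the rule but not set against each other. No member was called between Met3 and Met2 by edgeR, and neither was any other region (0.0%). At an unadjusted p under 0.05 there were 15 members, all lower in Met3, which is 5.02% of members against 7.32% of all regions. The median log2 fold change was -0.11 over members and -0.01 over all regions. Over all regions DESeq2 called 40 lower and 4 higher in Met3, among them 1 member, peak_48306, on chromosome 19 from 10175204 to 10176638. Its values were 3.38, 10.4 and 16.4 CPM in Met3, against 65.3, 13.2 and 42.9 CPM in Met2, and the Met2 line at 13.2 CPM overlapped the Met3 lines. The log2 difference by edgeR was -1.96 ± 0.45 (SE), and the region was called by edgeR without Met2 replicate 2 (adjusted p = 0.0134).

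Primary3 against Primary2 gave no called member and no called region either (edgeR, 0.0%). Of the members, 6 had an unadjusted p under 0.05 (2.01%, against 6.62% of all regions), and DESeq2 called none of them, against 11 regions lower and 43 higher in Primary3 over the whole table. The change of the metastasis-primary difference between the rounds, (Met3 - Primary3) - (Met2 - Primary2), was called in no member and in no region by edgeR (0.0%), and in no member by DESeq2 (14 of all regions lower and 1 higher). At an unadjusted p under 0.05 there were 17 members (5.69%, against 6.43% of all regions). With 3 lines per group, a p that misses the threshold does not show that the rounds were alike in these regions.

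Met1 and the mean of Primary2 and Primary3 were likewise not set against each other by the rule, although the requirements of 10 CPM and of 2 times the later groups limited how low each could be. By edgeR, 20 members were lower in Met1 (6.69% of members, with 4.94% of all regions called lower) and 1 member was higher (0.334%, with 4.53% of all regions called higher). The share called lower was close to the background. The median log2 fold change was -0.36 over members and 0.06 over all regions, and 235 members had a negative value and 64 a positive one. The group value of Met1 was a median of 0.815 times the mean of the primary groups, under 0.5 times in 39 members and above the primary mean in 70. The number called rests on single lines. With all lines it was 21 in both directions together (7.02% of members, with 9.47% of all regions called in either direction). Without Met1 replicate 2 it was 2 (peak_7187 and peak_26853; 0.669%, with 2.84% of all regions called), and without Primary3 replicate 1 it was 12 (4.01%, with 5.38%). Without Met1 replicate 3 it was 33 (11.04%, with 6.6%) and without Met2 replicate 1 it was 35 (11.7%, with 12.7%). Fitting only Met1, Primary2 and Primary3 gave 44 (14.7%, with 12.2%).

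Among the 20 members called lower in Met1, log2 fold changes ran from -2.01 to -1.12. All 3 Met1 lines lay below all 6 primary lines in 17 of them and above all 6 later metastasis lines in 12. The rule and the call together fix that place of Met1 by group value, so it is a description. How often lines were so ordered over all regions was not counted, and nothing is read from these 2 counts. The member of lowest adjusted p was peak_26853, on chromosome 14 from 20967321 to 20968733. It had 30.4, 27.8 and 36.2 CPM in Met1, against 109, 109 and 100.4 CPM in Primary2 and 113, 52.5 and 94.5 CPM in Primary3 (log2 -1.69 ± 0.33 (SE), edgeR adjusted p = 0.00206), while the later lines had 3.84 to 21.8 CPM. Its 3 levels were distinct, with no overlap between any of them.

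The next was peak_7187, on chromosome 10 from 43158239 to 43161506. Met1 had 32.9, 15.2 and 66.7 CPM, against 143, 109 and 129 CPM in Primary2 and 139, 98.0 and 92.6 CPM in Primary3 (log2 -1.66 ± 0.33 (SE), edgeR adjusted p = 0.0025). Met1 replicate 2 lay among the later lines, which had 10.9 to 20.6 CPM. peak_26853 and peak_7187 were called under all 23 alternatives of the fit. peak_45518 (chromosome 18, 47634391 to 47635742), with a log2 difference of -2.01 ± 0.45 (SE, edgeR adjusted p = 0.00588), had 10.1, 7.59 and 14.4 CPM in Met1, against 59.3, 43.3 and 45.3 CPM in Primary2 and 44.2, 35.0 and 29.1 CPM in Primary3. It and peak_5509 were called under 22 of the 23 and lost without Met1 replicate 2.

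The member called higher in Met1 was peak_26805, on chromosome 14 from 19397334 to 19398052. It had 29.1, 45.5 and 73.9 CPM in Met1, against 6.91, 29.1 and 11.3 CPM in Primary2 and 10.2, 7.002 and 26.4 CPM in Primary3. The log2 difference was 1.59 ± 0.43 (SE, edgeR adjusted p = 0.02), and the call was lost under 5 of the 23 alternatives. One Primary2 line was level with the lowest Met1 line, and the Met2 and Met3 lines had 2.86 to 8.44 CPM.

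Position was not used by the rule. Of the 299 members, 65 (21.7%) lay less than 50 kb from another member, in 26 runs, and 234 lay alone. The runs were mostly pairs (18), with 5 runs of 3 members and 3 larger ones. Several runs were only a few kb long, the shortest 2.02 kb, so their members can belong to 1 open stretch that was called as several. Among the other 20210 regions with at least 10 CPM in the open groups, 3.20% had a member within 50 kb. The share was 7.61% among 460 regions that met the same kind of rule with Met1, Met2 and Met3 all under Primary2 and Primary3, and 0.743% among 538 regions that were higher in Met2 and Met3 than in the 3 other groups. Of the 481 regions under the first of these rules, 21 are also members and were counted as members only. Of the 469 regions that met the rule without Met2 replicate 1, 127 (27.1%) lay in such runs.

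The run with most members spanned chromosome 7 from 151142323 to 151249020 (107 kb) and held 6 members among 9 regions. The remaining 3 regions were all called lower in the metastasis lines of rounds 2 and 3, as were 8.98% of all tested regions. Its first member, peak_94011, had 3.20, 10.5 and 18.4 CPM in Met2 and 22.5, 8.58 and 11.3 CPM in Met3, against 20.2, 21.2 and 47.3 CPM in Met1, 86.9, 65.8 and 108 CPM in Primary2, and 81.0, 42.0 and 54.8 CPM in Primary3. Met1 replicates 1 and 2 lay near the highest later line and replicate 3 above 1 primary line, and peak_94011 and peak_94022 of this run were among the 20 members called lower in Met1. Near the other end of the run, in peak_94028, Met1 was level with the primary lines: Met2 had 5.76, 5.70 and 7.49 CPM and Met3 5.63, 7.51 and 4.41 CPM, against 32.9, 12.02 and 22.4 CPM in Met1, 18.4, 6.58 and 32.4 CPM in Primary2, and 9.505, 14.004 and 21.5 CPM in Primary3. Members of a run thus differed in how Met1 compared with the primary lines.

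On chromosome 8, 4 of 6 regions between 46665107 and 46714600 were members. Their later lines had 0 to 35.2 CPM, and the open lines had 6.33 to 96.1 CPM. Its member of largest margin, peak_96111, had 5.12, 6.14 and 2.72 CPM in Met2 and 1.13, 12.2 and 7.56 CPM in Met3, against 24.0, 32.6 and 49.4 CPM in Met1, 38.0, 51.6 and 59.9 CPM in Primary2, and 79.6, 42.0 and 69.1 CPM in Primary3. No lines overlapped there. On chromosome 15, 4 of 6 regions between 25278217 and 25344742 were members, and 3 of them (peak_30823, peak_30825 and peak_30826) had no overlap between later and open lines. A run of 3 members on chromosome 18 from 42869058 to 42931137 held both peak_45343, the seventh by margin, and peak_45339, the last, and its 4 other regions were all called lower as well. In the runs on chromosomes 8 and 15, 1 of 2 other regions was called lower in each. Over all 11 runs that held other tested regions, 17 of 27 such regions were called lower and 0 higher. Every one was called lower in 3 runs and none in another 3. Of all tested regions, 8.98% were called lower and 11.2% higher.

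Among regions that the rule did not choose, the share called lower in the metastasis lines of rounds 2 and 3 was larger the nearer they lay to a member. Within 5 kb of a member, 62 of 157 such regions were called lower (39.5%), with a median log2 fold change of -0.74. Another 2 were called higher (1.27%, against 11.2% of all tested regions). The share called lower was 26.1% of 394 regions at 5 to 20 kb (median -0.47), 18.5% of 658 at 20 to 50 kb (-0.26), 13.8% of 2377 at 50 to 200 kb (-0.12) and 7.43% of 36066 further away (0.07). The background was 8.98% of all tested regions called lower, or 8.30% of those that are not members. Of the 299 members, 126 had such a region within 5 kb, and regions this close can belong to 1 open stretch that was called as several.

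The same order was seen in each round. Within 5 kb the median log2 fold change was -0.61 for Met2 against Primary2, with 12.1% called lower (background 2.77%), and -0.87 for Met3 against Primary3, with 25.5% called lower (background 4.52%). For Met1 against the primary groups it was -0.19, with 16 regions called lower (10.2%, background 4.94%) and 6 called higher (3.82%, background 4.53%). Met2 and Met3 were thus lower near members by a larger median than Met1 was, although these comparisons share their primary lines and the difference between them was not tested. The rule set the same order of groups in the members themselves, and regions this close can belong to the same open stretch. Nothing is therefore read from this order. The count of 62 was 61 when the chromosome medians of each library were removed and 51 to 65 when any 1 line was left out. Without Met2 replicate 1 the median within 5 kb was -0.65 for Met2 against Primary2.

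**Figure D4:**
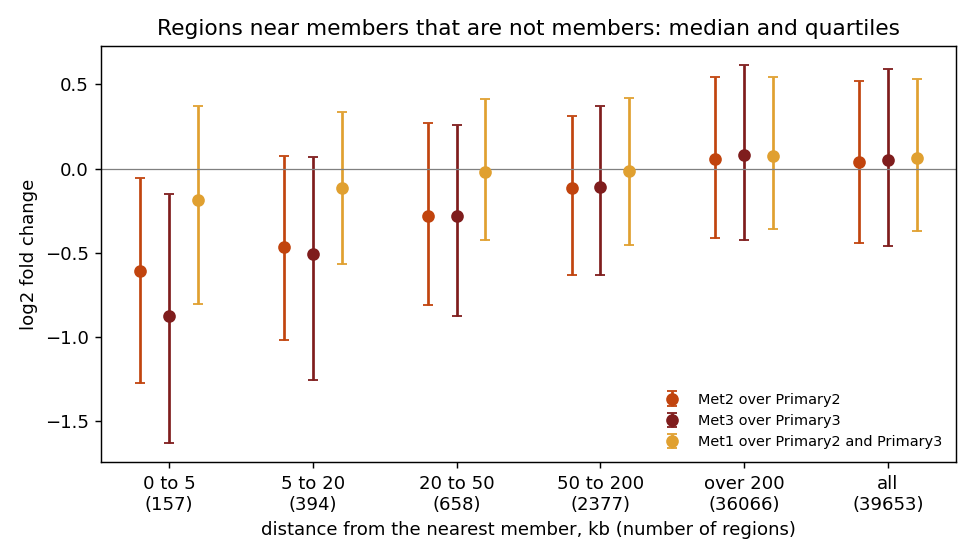
Log2 fold change of regions that are not members, by distance from the nearest member (kb, with the number of regions below), for Met2 over Primary2, Met3 over Primary3 and Met1 over both primary groups. Points are medians and bars the quartiles. The medians of Met2 and Met3 are at -0.61 and -0.87 within 5 kb and near 0 beyond 200 kb, and those of Met1 stay between -0.19 and 0.07.

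Members were found on all autosomes and on the X chromosome. They made up 1.46% of the regions with at least 10 CPM in the open groups. The share was highest on chromosome 18, with 23 members (3.09%), followed by chromosomes 13 (21 members, 2.44%) and 12 (20 members, 2.36%), and lowest on X (1 member, 0.281%) and chromosome 5 (8 members, 0.607%). Regions on chromosome 18 that are not members had a median log2 fold change of -0.40 between metastasis and primary lines of rounds 2 and 3, and 22.3% of them were called lower, against 8.30% of all regions that are not members. Chromosome 8 had the next lowest median, -0.28, with 17.8% of its other regions called lower and 19 members (2.02%). Chromosome 13 went the other way, with a median of 0.29 over its other regions and 5.22% called lower, and on chromosome 12 the median was 0.01 with 7.83% called lower. A high share of members was thus seen both with and without a shift of the other regions, and the part of such shifts in the share of members was not tested. Without Met2 replicate 1 the share of chosen regions was 4.295% on chromosome 18, 4.13% on 3, 3.83% on 8, 3.77% on 12, 3.28% on 14 and 3.26% on 13. Over all chromosomes it was 2.29%. The order of the chromosomes thus changed with that line: chromosome 3 had 20 members (1.83%) and 45 regions chosen without the line.

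**Figure D5:**
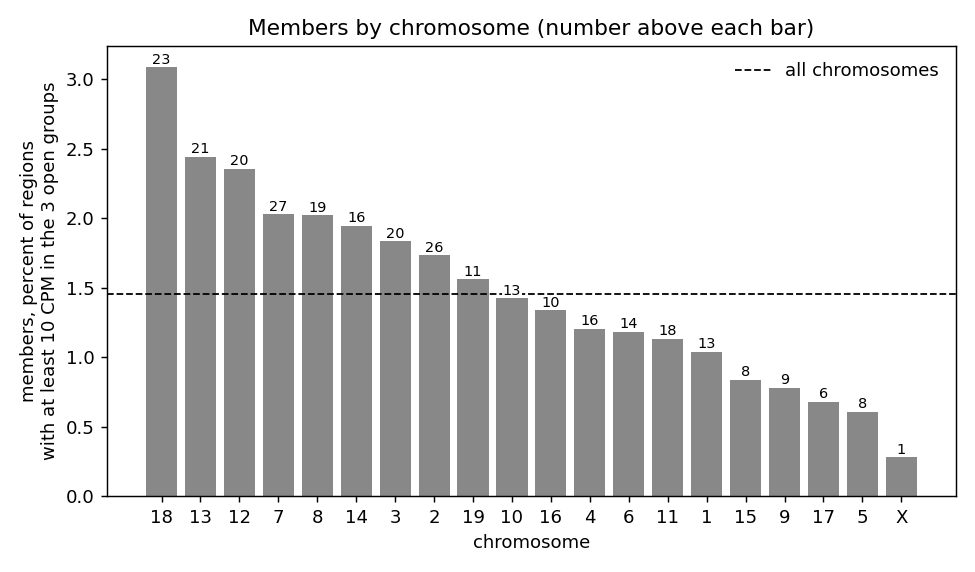
Members as a percent of the regions with at least 10 CPM in Met1, Primary2 and Primary3, by chromosome (bars from 0, ordered by height, with the number of members above each). The dashed line marks 1.46%, the share over all chromosomes, and chromosome 18 stands highest at 3.09%.

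Members had a median width of 892 bp, against 1038 bp for the other regions with at least 10 CPM in the open groups, and 58 of them (19.4%, against 23.2%) were 1500 bp or wider. They were wider than the 460 regions lower in all metastasis groups (756.5 bp) and the 538 regions higher in Met2 and Met3 (654.5 bp). The authors' score, of a scale not given in the sources used here, had a median of 31.3 over members and 58.7 over the other regions. Width and score both went with level. Split into 3 classes of like size by the mean of the open groups, members had a median width of 741.5, 897 and 1280.5 bp from the lowest to the highest class, against 864, 982 and 1157.5 bp for other regions of the same levels. The score stayed lower in members at each level, at 19.6, 30.8 and 54.1 against 27.3, 51.0 and 106.0. Regions were called over all samples together, while the levels are those of the open groups alone. If the score follows the signal of all samples, the rule itself lowers it in members, so nothing is read from this difference. Without Met2 replicate 1 the 469 chosen regions had a median width of 933 bp and a median score of 35.3, against 1038 bp and 58.95 for the others.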

How the data were processed

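ATAC-seq counts of 15 organoid lines were used, 3 in each of Met2, Met3, Met1, Primary2 and Primary3. The authors deposited raw counts per region and library in a single table of 43020 regions, which its row names give as called over all samples together. The build was mm9 and the tools were bedtools, MACS2, SAMtools, Picard and Bowtie, per the submitters' processing notes, which give neither roles nor versions. Per the labels' protocols, libraries were sequenced in paired-end mode. A read shift for the transposase and the removal of duplicates are not given in the sources used here. Groups and replicate numbers come from the sample titles.

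The rule for members was applied to summed counts with the library totals of the table. CPM of a line is its count scaled to a total of 1000000. Counts were tested with edgeR 4.0.16 (R 4.3.3; TMM, filterByExpr, robust quasi-likelihood fit with 5 group means), which kept 39952 regions, and p-values were adjusted by the Benjamini-Hochberg method over these. An SE given with a log2 difference was derived from the test, as the absolute difference over the square root of the quasi-likelihood F statistic. DESeq2 1.42.0 was an alternative, as were other scalings, filters, blocks and the omission of each line (see the closing section for their effect). The omission of both shallowest libraries together, most alternatives for the neighbours, and the shares and features of the sets chosen without a line were added after seeing the data. Python 3.11.15, pandas 2.3.3 and numpy 2.4.6 did the rest. No column of the table was left unmapped.

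Regions were named by rule: the 10 of largest margin, the 5 of highest open level, the members of the 3 largest runs, the 3 on either side of the threshold, and up to 4 per direction called in contrasts the rule did not use. peak_48306 and peak_51510 are also named for calls under alternatives. The members and the lists were chosen with earlier results of these data known. Distances of 5, 20, 50 and 200 kb were set together with the tests.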

Additional observations from a re-analysis of the deposited data

Results flagged for a closer look

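Met2 replicate 1 stood apart among the 6 later metastasis lines when each was measured in the regions chosen without it. It held 0.982% of its counts in the regions that met the rule without it, against 0.182% to 0.313% in the other 5 later lines, each measured in the regions chosen without that line and thus over sets of 258 to 469 regions. Within its own 469 regions it held less than every line of Met1, Primary2 and Primary3 (1.02% to 1.78%). The gap to the nearest line, divided by the range of the 6 lines, was 0.836, above the critical value of 0.625. No line stood apart in this way among the 9 lines of Met1, Primary2 and Primary3. The critical value is meant to mark about 1 in 20 groups by chance when the values are independent and of the same quantity. The shares here are over different, overlapping sets of regions, so that rate need not hold. In all, 2 groups were examined. The cause was not tested.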

How the results depend on the processing

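The number of members depended on the rule's settings and on single lines. It was 148 with a minimum of 20 CPM, 856 with a fold of 1.5, 74 with a fold of 3, 168 with an offset of 2 CPM, and 9 when every open line had to be at least 2 times every later line plus 0.5 CPM. It stayed within 1.5 times of the main count with a minimum of 5 CPM (447), no offset (359), the mean of the lines' CPM (309, of which 225 were members), TMM library sizes (262, of which 258 were members) and without the 2 shallowest libraries (303, of which 279 were members). Leaving out 1 line gave 210 to 469 regions, the highest without Met2 replicate 1. When 1 line was left out, 275 to 297 members were called for rounds 2 and 3 together. Of all regions, 6.5% and 9.04% to 10.0% were called lower in those fits. The counts were 116 to 211 for Met2 against Primary2 (1.25% and 3.22%) and 141 to 247 for Met3 against Primary3 (1.9% and 6.04%). They were 24 to 127 for Met2 against Met1 (0.2% and 1.72%) and 75 to 214 for Met3 against Met1 (1.47% and 5.09%). Met3 against Met2 gave 0 to 1 (0.0998% where 1 was called). Met1 against the primary groups gave 2 to 35, where 1162 to 5236 of all regions were called. The calls over all regions did not always move along with those of the members. For Met1 against the primary groups, 33 members were called without Met1 replicate 3, against 21 with all lines. Of all regions, 2710 were called without that line, against 3784 with all lines. Fitted without the other groups, 2 members were called for Met2 against Met1 (58 of all regions) and 44 for Met1 against the primary groups (4574 of all regions), and DESeq2 called 1 for Met3 against Met2. The cause was not tested. For metastasis against primary lines of rounds 2 and 3, a contrast the rule used, 838 of 874 alternative values of 38 named regions kept direction and call, 36 lost the call (12 in peak_30821, 11 in peak_806, 9 in peak_26380 and 2 each in peak_26805 and peak_94028) and 0 reversed. For Met1 against the primary groups, 108 of 115 values of 5 named regions kept the call and 7 lost it.

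The replicate numbers did not pair the lines: over 30 pairs of lines with the same number, deviations from group means correlated at -0.21 to 0.16 (median -0.03), and 2 pairs were over 0.1. With the replicate number as a block, 296 members were called in rounds 2 and 3 together (all lower, with 8.19% of all regions called lower), 188 in Met2 against Primary2 (2.24%), 209 in Met3 against Primary3 (3.67%), 76 in Met2 against Met1 (0.633%), 155 in Met3 against Met1 (2.87%) and 20 in Met1 against the primary groups (in either direction, with 7.82% of all regions), and 59 neighbouring regions within 5 kb were called lower. The shares of members with a motif or near a gene start were not run, for want of a genome and annotation of the build mm9 in the material used here. Low depth limits single lines most in Primary3 replicate 2, where 3 counts are 10.5 CPM, the size of the rule's minimum, and intervals for single lines would cover counting error only.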
